A study of Mus musculus with 16 samples.

Results

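Collagen is made by a chain of enzymes and carriers, and 34 genes of that chain are described here across the inner and outer tissue of mouse intervertebral discs, with and without the transcription factor Sox9. The genes were taken by symbol from a list and grouped by the step they serve: hydroxylation, glycosylation, folding, export, cleavage of the propeptides and crosslinking. Each gene is represented by the probe set with the highest mean over the 16 arrays. Of the 34 genes, 30 were measured, each by 1 probe set, out of 19505 genes with a symbol, and Plod3, Fkbp10, Adamts2 and Loxl2 were not analysed here.

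RNA came from 8 female mice of 3 to 4 months, 4 control (CTR) and 4 conditional knockout (cKO) animals. CTR mice were Sox9fl/fl, with loxP sites in both copies of Sox9 and no Cre named, and cKO mice were AcanCreERT2 Sox9fl/fl, in which a Cre that tamoxifen switches on is made under control of Acan, which encodes the cartilage proteoglycan aggrecan. Tamoxifen on 2 consecutive days is named for the cKO mice alone, and whether controls were injected is not stated, so drug and genotype cannot be told apart. At 5 days after the first injection, nucleus pulposus (NP), the gel-like core, and annulus fibrosus (AF), the ring of fibrous lamellae around it, were dissected and pooled over lumbar and tail discs of each animal. Every animal gave 1 NP and 1 AF array, so the 4 groups hold 4 arrays each, numbered as replicates 1 to 4. Cells in which Acan is off do not make the Cre and keep their Sox9.

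In the endoplasmic reticulum, newly made procollagen chains are hydroxylated on prolines and lysines, some hydroxylysines receive sugars, and chaperones hold the chains until the triple helix has formed. Enlarged COPII vesicles then carry procollagen towards the Golgi, proteases outside the cell remove its propeptides, and lysyl oxidases crosslink the fibrils. The AF is a tissue of collagen lamellae, while the NP holds more proteoglycan and less fibrous collagen.

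Values are log2 signals, so a difference of 1 is a doubling of signal. The medians of negative control probe sets lay between 6.14 and 6.59 on the 16 arrays, and signals near or under them are treated as background. Sox9 itself fell in NP from 15.95 to 16.79 in CTR to 9.55 to 10.12 in cKO, and in AF from 16.39 to 17.45 to 11.43 to 12.99. Markers of NP and notochordal cells went both ways. Of 12 measured, Krt8, Krt18, Krt19, Cd24a and Cdh2 were higher in all 8 NP arrays than in any AF array, with Krt19 at 17.9 to 18.4 in NP and 15.3 to 17.3 in AF. Foxa2, Car12 and Foxf1 were lower in all 8 NP arrays, with Foxf1 at 3.86 to 5.28 in NP and 7.0 to 9.38 in AF. The mean of the 12 hardly separated the tissues, at 11.0 to 11.3 in NP and 10.4 to 11.3 in AF. The notochordal genes Shh (6.89 to 7.86) and Noto (6.73 to 8.23) were low in both tissues, and Foxa2 lay under the negative controls in NP. The 14 fibrous AF and tendon markers had mean signals of 12.2 to 14.4 in AF and 7.13 to 8.31 in NP, except 9.72 in NP cKO replicate 4. A difference between arrays of bulk tissue can come from fewer cells of a type or from less RNA per cell, which cannot be told apart here. Precision is limited by the 4 arrays of each group.

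The comparison of NP with AF in control discs asks how the processing chain differs between the core and the ring. Of the 30 genes, 18 were lower in NP and 1, P4ha3, was higher (limma, adjusted p under 0.05). Over all 22206 probe sets, 10.1% were called lower, 9.96% higher and 20.1% in either direction. Of the 30, 19 had CTR groups that did not overlap, against 22.6% of all probe sets. The median difference of the 30 genes was -1.0 on the log2 scale, against 0.04 over all probe sets, and 5 of the 30 differences were positive, against 52.8% of all. By step, the lower genes were 1 of 4 for hydroxylation of proline at position 4, both measured genes for hydroxylation of lysine, both for glycosylation and both for folding. They were also 2 of 5 for hydroxylation of proline at position 3, 2 of 5 for export, 4 of 6 for cleavage and 3 of 4 for crosslinking. The cleavage count holds Adamts3, under the negative control medians in all 16 arrays, and Adamts14, under them in 2 of 4 NP CTR arrays. In cKO discs, too, 18 of the 30 were lower in NP and 1 was higher, where 12.6% of all probe sets were lower, 13.3% higher and 25.9% called in either direction. There 16 of the 30 genes had groups that did not overlap (26.8% of all probe sets) and 5 differences were positive (54.4%). The calls differed at a pair of genes: Adamts14 was called in CTR and not in cKO, and Pcolce in cKO and not in CTR.

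**Figure D1:**
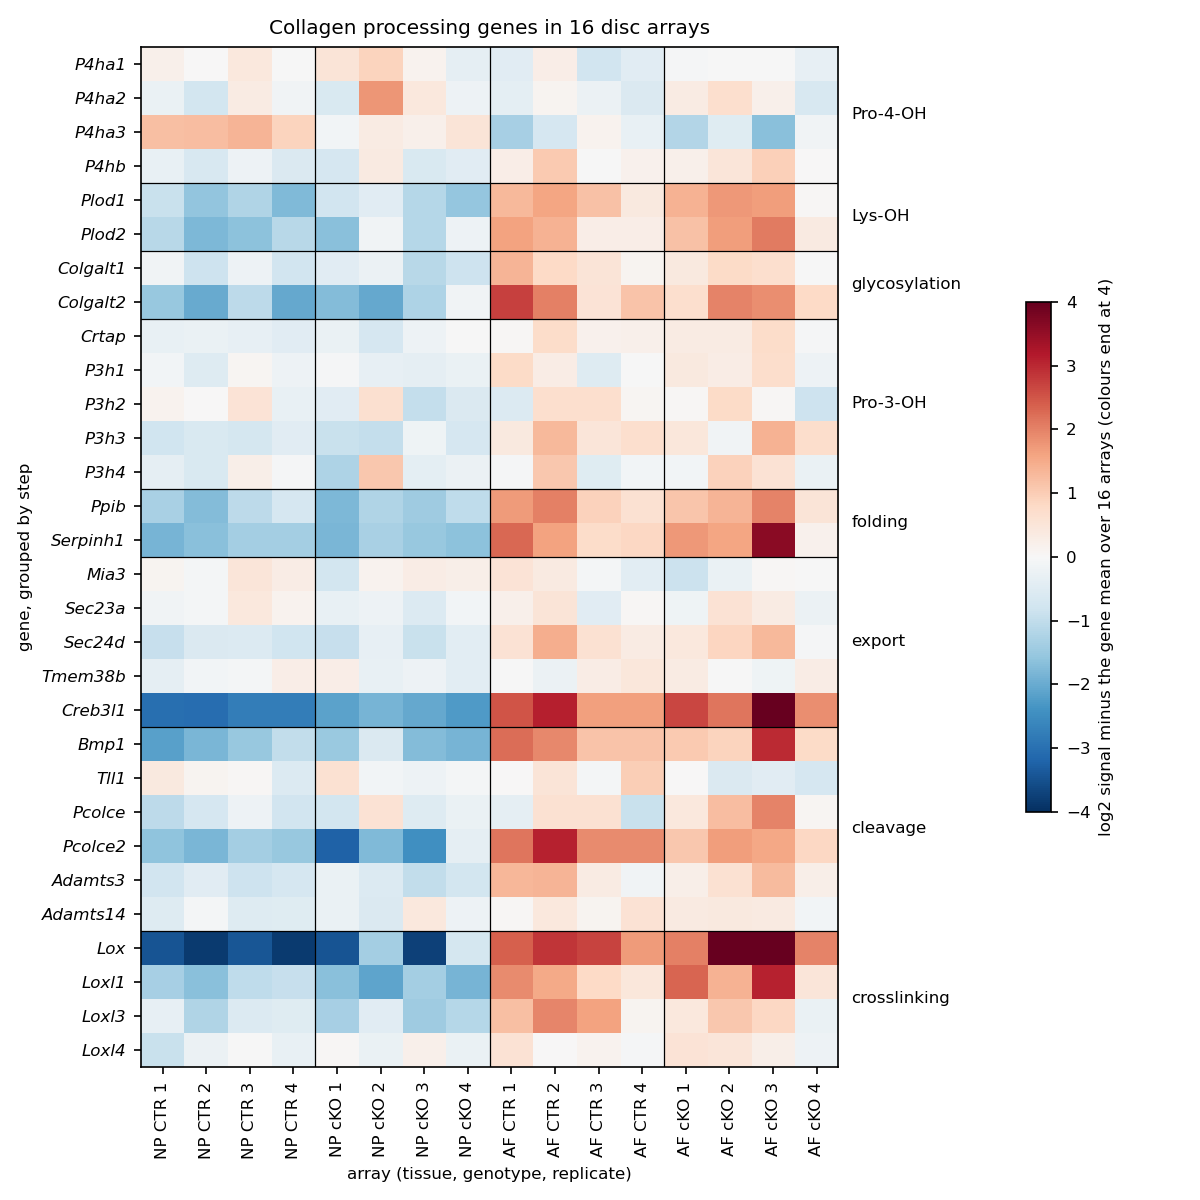
Log2 signal of the 30 measured genes (one line each, grouped by step) on the 16 arrays (columns), each minus its mean over 16 arrays; red is above and blue below that mean, and colours end at 4. Most genes are blue in the 8 NP arrays and red in the 8 AF arrays, with P4ha3 reddest in NP CTR and genes such as Mia3, Sec23a and Tmem38b pale throughout.

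Prolyl 4-hydroxylase, which makes the hydroxyproline that keeps the triple helix stable, is built of a catalytic alpha subunit, encoded by P4ha1, P4ha2 or P4ha3, and a beta subunit, encoded by P4hb. P4ha3 was the only gene of the list with a higher call in NP. Its log2 signal was 14.19, 14.20, 14.34 and 13.87 in NP CTR and 11.65, 12.29, 13.12 and 12.68 in AF CTR. All NP values lay above all AF values, with a difference of 1.71 (SE 0.32, adjusted p = 0.000773), which is 3.28-fold. In cKO discs P4ha3 read 12.87, 13.30, 13.19 and 13.49 in NP and 11.80, 12.50, 11.30 and 12.84 in AF. The groups again did not overlap, but the cKO difference of 1.10 (SE 0.32, adjusted p = 0.0159) was 0.83 (adjusted p = 0.0672) without AF cKO replicate 3, the lowest AF array. P4hb, the beta subunit that is also the chaperone protein disulfide isomerase, was lower in NP CTR at 13.34 ± 0.21 (SD, n = 4) than in AF CTR at 14.15 ± 0.47. Its difference of -0.80 had an adjusted p of 0.0440, and the call was lost in 11 of 22 settings, median centring among them. Leaving out any of NP CTR replicates 1, 2 and 4 or AF CTR replicates 1, 2 and 4 was enough to lose it, with an adjusted p of up to 0.149 (without AF CTR replicate 2). P4ha1 and P4ha2 were not called, with differences of 0.50 (95% interval -0.03 to 1.03) and 0.07 (-0.74 to 0.89). The alpha subunits thus had different NP to AF ratios within the same arrays.

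Lysyl hydroxylases prepare the sites at which collagen is later glycosylated and crosslinked. Plod1, which acts on lysines of the helix, read 7.68, 7.01, 7.39 and 6.82 in NP CTR and 9.90, 10.18, 9.76 and 8.96 in AF CTR. The groups stood apart by -2.47 (SE 0.35, adjusted p = 6.24e-05), or 5.55-fold. Plod2, which acts on the telopeptides where crosslinks form, read 11.34, 10.65, 10.81 and 11.33 in NP CTR and 14.05, 13.84, 12.73 and 12.71 in AF CTR. AF CTR replicates 1 and 2 were the higher AF pair for Plod2, and all AF values exceeded all NP values (-2.30, SE 0.40, adjusted p = 0.000481). In cKO discs the differences were -2.18 for Plod1 and -2.10 for Plod2, both called.

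The galactosyltransferases Colgalt1 and Colgalt2 add the first sugar to hydroxylysine. Colgalt2 read 9.41, 8.91, 9.88 and 8.88 in NP CTR and 13.67, 12.96, 11.48 and 12.09 in AF CTR. The lowest AF array exceeded the highest NP array, and the difference was -3.28 (SE 0.46, adjusted p = 5.39e-05), or 9.72-fold. Colgalt1 differed less, by -1.19 (SE 0.28, adjusted p = 0.00496), and its call was lost without AF CTR replicates 1 and 2 (-0.81, adjusted p = 0.0976). In cKO discs Colgalt2 read 9.21, 8.88, 9.71 and 10.80 in NP and 11.61, 12.93, 12.79 and 11.75 in AF, again without overlap.

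Hydroxylation of single prolines at position 3 is carried out by P3h1 in a complex with Crtap, a scaffold, and cyclophilin B, and by the related enzyme P3h2. P3h3 and P3h4 were grouped with this step in the list, and their activity was not measured. In NP CTR, P3h3 was lower by -1.36 (SE 0.28, adjusted p = 0.00204). All 4 NP CTR signals of P3h3 (6.14 to 6.48) lay under the negative control medians of their arrays, so its ratio is a bound of at least 2.18-fold. Crtap was lower by -0.63 (SE 0.21, adjusted p = 0.0379), a call that was lost in 13 of 22 settings. Leaving out any single CTR array except AF CTR replicate 1 was enough to lose it, with an adjusted p of up to 0.125 (without AF CTR replicate 2). P3h1, P3h2 and P3h4 were not called, with differences from -0.32 to -0.12. Among the partners of the complex, AF thus exceeded NP 5.68-fold for cyclophilin B and 1.55-fold for Crtap, while P3h1 was not called at 1.25-fold.

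Ppib encodes cyclophilin B, a prolyl isomerase that speeds folding of the helix. It read 10.55, 10.11, 10.82 and 11.17 in NP CTR and 13.56, 13.88, 12.78 and 12.45 in AF CTR. The groups did not overlap and differed by -2.51 (SE 0.33, adjusted p = 3.33e-05). Serpinh1 encodes HSP47, a chaperone that binds the collagen triple helix. Its signal was 8.17, 8.37, 8.66 and 8.66 in NP CTR and 12.32, 11.64, 10.77 and 10.84 in AF CTR. NP arrays were narrow and AF arrays wide around a difference of -2.93 (SE 0.48, adjusted p = 0.000282), or 7.60-fold. In cKO discs Serpinh1 read 8.21, 8.73, 8.52 and 8.40 in NP and 11.77, 11.61, 13.63 and 10.19 in AF, where replicate 3 stood highest and replicate 4 lowest. That AF spread left the cKO difference at -3.33 (SE 0.48, adjusted p = 9.23e-05).

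Of the 5 export genes, Creb3l1 and Sec24d were lower in NP and the other 3 were not called. Creb3l1, also named OASIS, is a membrane-bound transcription factor of the endoplasmic reticulum that drives secretory and collagen genes in bone. It read 5.41, 5.38, 5.65 and 5.66 in NP CTR, under the negative controls, and 10.93, 11.53, 10.06 and 10.05 in AF CTR. With the NP at background, the AF signal was at least 17.3-fold higher (fitted difference -5.12, SE 0.41, adjusted p = 9.99e-08), the smallest adjusted p of the list. Sec24d, the cargo-binding subunit of COPII used for procollagen, was lower in NP CTR at 7.87 ± 0.18 (SD, n = 4) than in AF CTR at 9.32 ± 0.49 (-1.45, adjusted p = 0.00105). Its COPII partner Sec23a was 10.78 ± 0.25 in NP CTR and 10.77 ± 0.41 in AF CTR, a difference of 0.01 (95% interval -0.48 to 0.50). Mia3, or TANGO1, the receptor that loads procollagen at exit sites, and Tmem38b, a potassium channel of the endoplasmic reticulum, were not called either, at 0.11 (-0.46 to 0.68) and -0.19 (-0.64 to 0.25).

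Promoter letters are shown for export and folding genes because Sec23a and Sec24d hold the same 8-base site while their NP to AF ratios differ. The sequences are RefSeq's, on build GRCm38.p6, 5′ to 3′ on the strand of the gene. In a window from 250 bases before to 50 bases after each annotated start, TGACGTGG, the site of CREB3-type bZIP factors, was found in 3 of the 22 listed genes with a promoter in the table (Sec23a, Sec24d and Adamts3) and in 0.71% of all 27025 genes with one. Capitals mark TGACGTGG in the first pair and CCAAT, the NF-Y box known from chaperone promoters, in Ppib.
Sec24d, chr3:123267246-123267495, plus strand: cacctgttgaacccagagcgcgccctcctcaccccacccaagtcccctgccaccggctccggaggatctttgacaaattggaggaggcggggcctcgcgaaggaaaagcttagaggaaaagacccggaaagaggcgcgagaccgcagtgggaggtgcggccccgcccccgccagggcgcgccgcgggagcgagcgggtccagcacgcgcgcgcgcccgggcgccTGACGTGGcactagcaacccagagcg
Sec23a, chr12:59011993-59012022, minus strand: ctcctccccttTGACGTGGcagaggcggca
Ppib, chr9:66059919-66060168, plus strand: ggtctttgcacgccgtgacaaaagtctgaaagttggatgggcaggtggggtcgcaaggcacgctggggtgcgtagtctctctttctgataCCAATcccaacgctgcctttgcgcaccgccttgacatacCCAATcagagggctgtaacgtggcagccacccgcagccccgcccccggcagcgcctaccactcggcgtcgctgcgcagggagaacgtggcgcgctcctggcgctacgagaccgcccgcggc

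The match begins 26 bases before the annotated start in Sec24d and 6 bases past it in Sec23a. In Ppib the matches begin 160 and 121 bases before the start. All motifs were read on both strands. ACGTG, the hypoxia response core, which is contained in TGACGTGG, was found in 11 of the 22 genes and in 21.78% of all genes. CCAAT was found in 7 of 22 and in 41.06%. ACAAT, the core of the SOX site, was found in 3 of 22 (Plod3, Sec23a and Tll1) and in 34.39%. A match describes letters in this window and not a bound site.

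Cleavage of the propeptides uses the C-proteinases Bmp1 and Tll1, their enhancers Pcolce and Pcolce2, and the N-proteinases Adamts3 and Adamts14. Pcolce2 read 12.44, 12.23, 12.67 and 12.53 in NP CTR and 16.20, 17.12, 15.93 and 15.95 in AF CTR. No array overlapped, and the difference was -3.83 (SE 0.43, adjusted p = 4.83e-06), or 14.2-fold. Pcolce, the other enhancer, was not called in CTR (-0.67, 95% interval -1.51 to 0.18), so the paralogues stood at different ratios in the same arrays. In cKO discs Pcolce was lower in NP (-1.16, adjusted p = 0.0406), a call that was lost in 9 of 22 settings. Leaving out NP cKO replicate 1, 3 or 4 or AF cKO replicate 2 or 3 was enough, and without AF cKO replicate 3 the difference was -0.81 (adjusted p = 0.154). Bmp1 read 6.29, 6.63, 6.95 and 7.48 in NP CTR, close to background, and 10.69, 10.38, 9.60 and 9.60 in AF CTR (-3.22, SE 0.43, adjusted p = 3.30e-05). Its 8 CTR arrays did not overlap between tissues. Adamts14 lay under its negative control medians in 2 of 4 NP CTR arrays, so its size is not read here. It passed as lower in NP CTR (adjusted p = 0.0355), a call lost in 9 of 22 settings and without any one of NP CTR replicates 1, 3 and 4 and AF CTR replicates 2 and 4. Adamts3 and Tll1 lay under the negative control medians in all 16 arrays, so their ratios are not read here, although Adamts3 passed the test.

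Lox is the main lysyl oxidase that starts collagen and elastin crosslinks. It read 5.86, 5.48, 5.89 and 5.50 in NP CTR, under the negative controls, and 11.71, 12.18, 12.02 and 11.00 in AF CTR. The AF signal was at least 36.8-fold higher (fitted difference -6.05, SE 0.70, adjusted p = 7.14e-06). Loxl1, which acts mainly on elastic fibres, read 4.51, 4.14, 4.81 and 4.91 in NP CTR and 7.72, 7.34, 6.62 and 6.26 in AF CTR. With NP under background in every array, and 1 of the 4 AF arrays under it too, its AF signal was at least 1.37-fold higher in CTR (adjusted p = 0.000528) and at least 2.22-fold higher in cKO. Loxl3, another family member, read 12.35, 11.49, 12.14 and 12.18 in NP CTR and 13.87, 14.65, 14.28 and 12.80 in AF CTR (-1.86, SE 0.36, adjusted p = 0.00108). Unlike Lox and Loxl1, Loxl3 was well above background in NP. Loxl4 was not called (-0.53, 95% interval -1.01 to -0.06, adjusted p = 0.109).

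**Figure D2:**
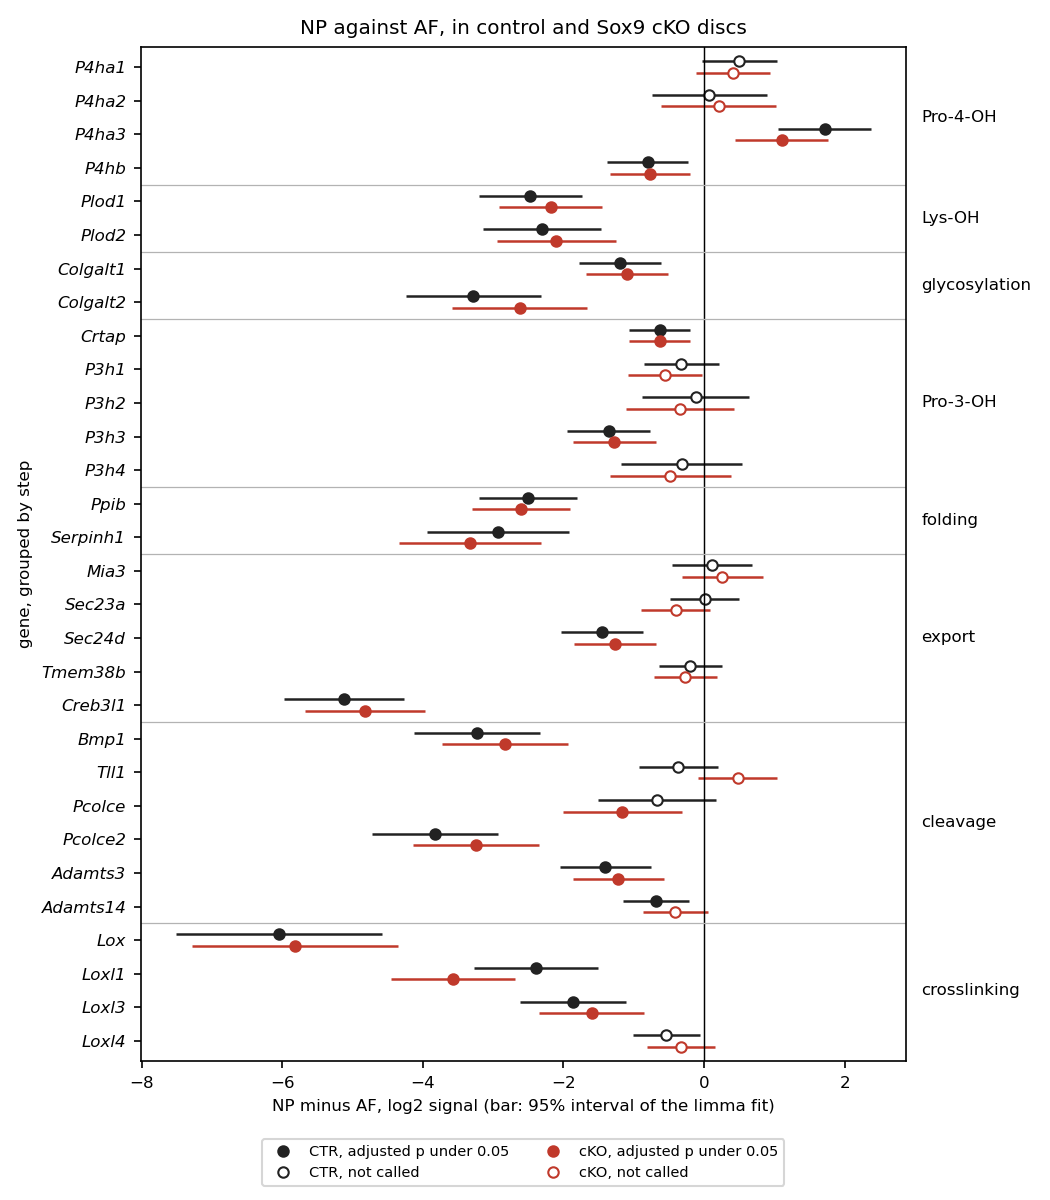
Difference of NP minus AF in log2 signal for each of the 30 genes, grouped by step, in CTR (black) and cKO (red); bars are 95% intervals of the limma fit and filled points are called at an adjusted p under 0.05. Points lie left of 0 for 25 genes in each genotype, down to Lox and Creb3l1, whose NP signals in CTR were at background, and P4ha3 is the filled point on the right.

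Of the 19 calls in CTR, 14 were kept in every setting that tested the gene, and those lost in some were Adamts14, Adamts3, Colgalt1, Crtap and P4hb. In cKO 15 of 19 were kept in every setting that tested the gene, and the others were Crtap, P4ha3, P4hb and Pcolce. Loxl1 and Adamts3, with means of 5.82 and 4.67 over 16 arrays, were removed by the filter on negative control medians. Their calls were therefore not tried in that setting. Without AF CTR replicates 1 and 2, whose osteoblast markers were high, 14 genes were called in CTR (13 lower and 1 higher). The share of all probe sets called in that setting is not given here, so nothing is read from the smaller count.

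The substrates of this chain were followed through 13 fibrillar collagens and collagens associated with them. In CTR 10 of 13 were lower in NP and none higher, against 10.1% and 9.96% of all probe sets, with a median difference of -4.13. Col1a2 and Col1a1, the chains of type I collagen, differed by -9.89 (SE 0.58, adjusted p = 1.61e-09) and -8.10 (SE 0.56), while Col3a1 of type III collagen was under background in NP CTR and at least 74.8-fold higher in AF. Col2a1, the collagen of cartilage, differed by -6.06 (SE 0.59, adjusted p = 8.82e-07). In cKO 9 of 13 were lower and none called higher, against 12.6% and 13.3% of all probe sets. Col9a2 was not called in cKO (0.72, adjusted p = 0.112), but all its NP arrays lay above all AF arrays, which were under background. Col5a3 lay under background in all 16 arrays.

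A further 71 genes of the pathway were counted: other chaperones, COPII and tethering factors, other proteases and fibril assembly proteins, and enzymes that supply cofactors and proline. In CTR 27 were lower in NP and 5 higher, against 20.1% of all probe sets in either direction, and in cKO 30 and 4, against 25.9%. The export and cofactor genes among them were close to that share in CTR. The number called in CTR, 32, lay between 15 and 34 in the other settings, and was 21 without AF CTR replicate 1. Of 14 chaperones, 10 were lower in CTR, among them Hspa5, or BiP, at 14.82 ± 0.24 (SD, n = 4) in NP CTR and 16.32 ± 0.53 in AF CTR. Of 18 cleavage and assembly genes, 11 were lower and 1 higher, with the matrix protein Thbs1 under background in NP CTR (4.20 to 4.73) and at 13.91 to 16.22 in AF CTR (adjusted p = 3.91e-10) and the proprotein convertase Pcsk6 at 5.90 to 6.74 in NP CTR, under background in 3 of 4 arrays, and at 11.01 to 12.91 in AF CTR. The higher one was Aebp1, which binds collagen, at 1.21 (SE 0.35, adjusted p = 0.0185). Of 27 export genes, 5 were lower and 2 higher. Creb3l2, the paralogue of Creb3l1 that drives COPII genes in chondrocytes, was higher in NP by 1.40 (SE 0.25, adjusted p = 0.000697), the opposite direction to Creb3l1. Sar1b, the COPII GTPase, was higher by 0.99 (SE 0.26, adjusted p = 0.0106). Of 12 cofactor and proline genes, 1 was lower and 2 higher.

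The comparison of cKO with CTR asks whether loss of Sox9, which directs cartilage gene programmes, changes this chain within days. In neither tissue did any of the 30 genes pass an adjusted p under 0.05 in limma, where 0.122% of all probe sets were called in NP and 0.0991% in AF. At an unadjusted p under 0.05 there was 1 gene in NP, where 4.58% of all probe sets passed, and 3 in AF, where 10.6% passed. The median change was 0.04 in NP and 0.01 in AF. Averaged over both tissues, 0 of 30 were called (0.311% of all probe sets) and 6 had an unadjusted p under 0.05 (7.5%). For the difference of the changes between tissues 0 were called, as for all probe sets, and 1 had an unadjusted p under 0.05 (6.74%). With the labels' thresholds, which ask for a fold of 1.75 or more beside the unadjusted p, the counts were 1 in NP (1.18% of all probe sets), 2 in AF (3.49%), 1 for the average (1.38%) and 1 for the difference of changes (4.4%).

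**Figure D3:**
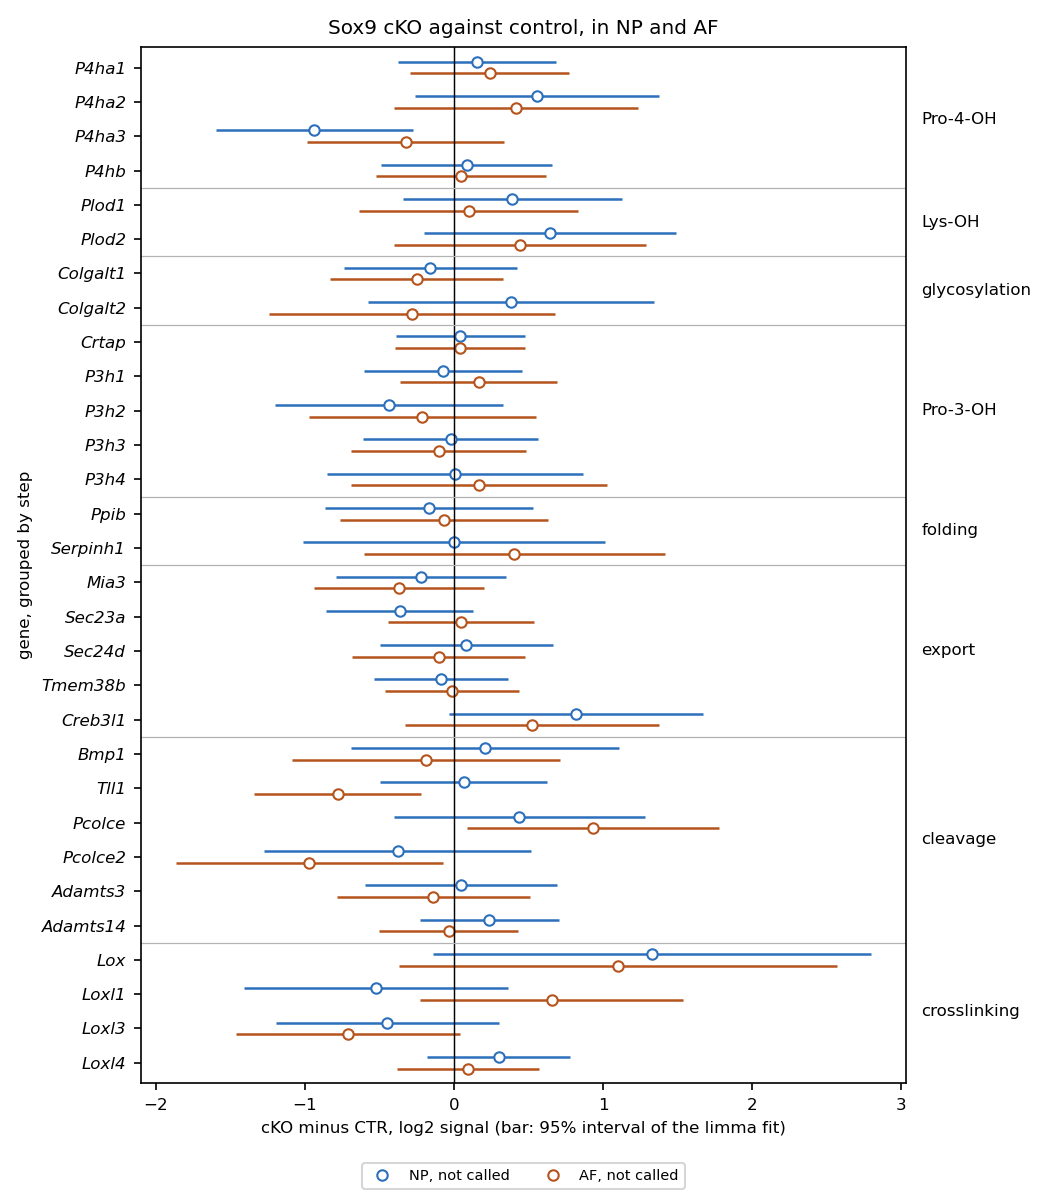
Change of cKO minus CTR in log2 signal for each of the 30 genes, grouped by step, in NP (blue) and AF (orange), with 95% intervals of the limma fit. All points are open, since none was called, and most intervals include 0; P4ha3 in NP and Pcolce, Pcolce2 and Tll1 in AF have intervals on one side of it.

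In NP, the gene with the smallest p was P4ha3, which read 13.87 to 14.34 in CTR and 12.87 to 13.49 in cKO. The groups did not overlap, with a change of -0.94 (SE 0.32, 95% interval -1.60 to -0.28), but it did not pass (adjusted p = 0.697). The change lay between -1.03 and -0.82 with each array left out in turn. In AF, P4ha3 changed by -0.33 (95% interval -0.99 to 0.34), and the change in NP was not shown to differ from that in AF (-0.61, adjusted p = 0.781).

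Creb3l1 was the other gene without overlap in NP, at 6.27, 6.57, 6.38 and 6.15 in cKO against 5.38 to 5.66 in CTR (0.82, SE 0.41, adjusted p = 1). These signals are at background, where 3 of the 4 cKO arrays also lay under their negative control medians. Over all probe sets, 2.93% did not overlap in NP, against these 2 of 30. Lox read 5.87, 7.97, 5.58 and 8.62 in NP cKO against 5.48 to 5.89 in CTR (1.33, SE 0.70, adjusted p = 1). Only replicates 2 and 4 stood above the CTR arrays, and the change was 0.79 without replicate 4.

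The same arrays stood apart in other lists. NP cKO replicate 4 also had the highest fibrous marker mean of the NP arrays, at 9.72, and the highest Pcolce2, at 13.68. NP cKO replicate 2 had a smooth muscle and pericyte mean of 9.11, against at most 8.10 in the other NP arrays, and was the highest NP array for 12 of the 30 genes. The smooth muscle and pericyte markers went both ways in NP cKO replicate 2. Acta2 (16.66), Tagln (14.92), Cspg4 (11.88) and Mylk (8.95) were at their highest NP values. Rgs5, Cnn1 and Des lay under background, and Pdgfrb was higher in NP cKO replicate 4. Myh11 was 6.96, against 8.32 to 9.48 in NP CTR. Which cells gave these signals, and their part in the result, was not tested.

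The remaining genes of smallest p in NP were Plod2, Sec23a and P4ha2. Plod2 read 10.79, 12.33, 11.32 and 12.26 in cKO (0.64, 95% interval -0.20 to 1.49), with replicates 2 and 4 above the CTR range, and the change was 0.43 without replicate 2. Sec23a read 10.55, 10.63, 11.11 and 10.83 in CTR and 10.39, 10.50, 10.16 and 10.60 in cKO (-0.37, -0.86 to 0.13), and its NP change minus its AF change was -0.41 (adjusted p = 0.800). P4ha2 read 10.71, 10.27, 11.30 and 10.84 in CTR and 10.39, 12.74, 11.42 and 10.79 in cKO (0.55, -0.26 to 1.37), where replicate 2 was highest, and the change was 0.09 without it. Serpinh1 and Ppib, the folding pair, changed by -0.00 (-1.01 to 1.01) and -0.17 (-0.87 to 0.53), intervals wide enough to hold a doubling for Serpinh1 and not for Ppib.

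In AF, the genes with an unadjusted p under 0.05 were Tll1, Pcolce and Pcolce2. Pcolce2 read 16.20, 17.12, 15.93 and 15.95 in CTR and 15.11, 15.73, 15.61 and 14.86 in cKO. It was the gene of the list without overlap in AF, where 4.33% of all probe sets did not overlap, at -0.97 (SE 0.43, adjusted p = 0.441). The other enhancer, Pcolce, had the opposite sign, from 11.04, 12.01, 12.02 and 10.49 in CTR to 11.81, 12.62, 13.37 and 11.49 in cKO (0.93, SE 0.40, adjusted p = 0.433), with overlapping groups and a change of 0.58 without AF cKO replicate 3. Tll1 read 5.17, 5.69, 5.08 and 6.13 in CTR and 5.18, 4.58, 4.71 and 4.50 in cKO (-0.78, SE 0.27, adjusted p = 0.321), all under the negative controls. Its difference between tissues (0.84, adjusted p = 0.732) therefore rests on background.

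Among the crosslinking genes, Lox had the highest SD of the 30 genes in AF cKO. It read 11.34, 14.82, 13.88 and 11.28 in AF cKO (1.10, 95% interval -0.37 to 2.57), with replicates 2 and 3 far above the CTR range and 1 and 4 inside it. Without AF cKO replicate 2 the change was 0.44, and without AF cKO replicate 3 it was 0.75. Loxl1 read 8.14, 7.20, 8.91 and 6.30 in AF cKO and 4.16, 3.71, 4.46 and 3.95 in NP cKO. Its AF change was 0.65 (-0.23 to 1.54), which was 0.23 without AF cKO replicate 3, 0.41 with AF CTR replicate 4 left out and 1.10 with AF cKO replicate 4 left out, and the NP change minus the AF change was -1.18 (SE 0.60, adjusted p = 0.741), with NP under background. Loxl3 read 13.09, 13.75, 13.51 and 12.41 in AF cKO (-0.71, -1.46 to 0.04, adjusted p = 0.485, and from -1.08 to -0.45 with each array left out) and 11.35, 12.22, 11.26 and 11.55 in NP cKO (-0.45, -1.20 to 0.30). Averaged over both tissues, Loxl3 changed by -0.58 (adjusted p = 0.605) and Lox by 1.21 (adjusted p = 0.562), neither past the test.

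**Figure D4:**
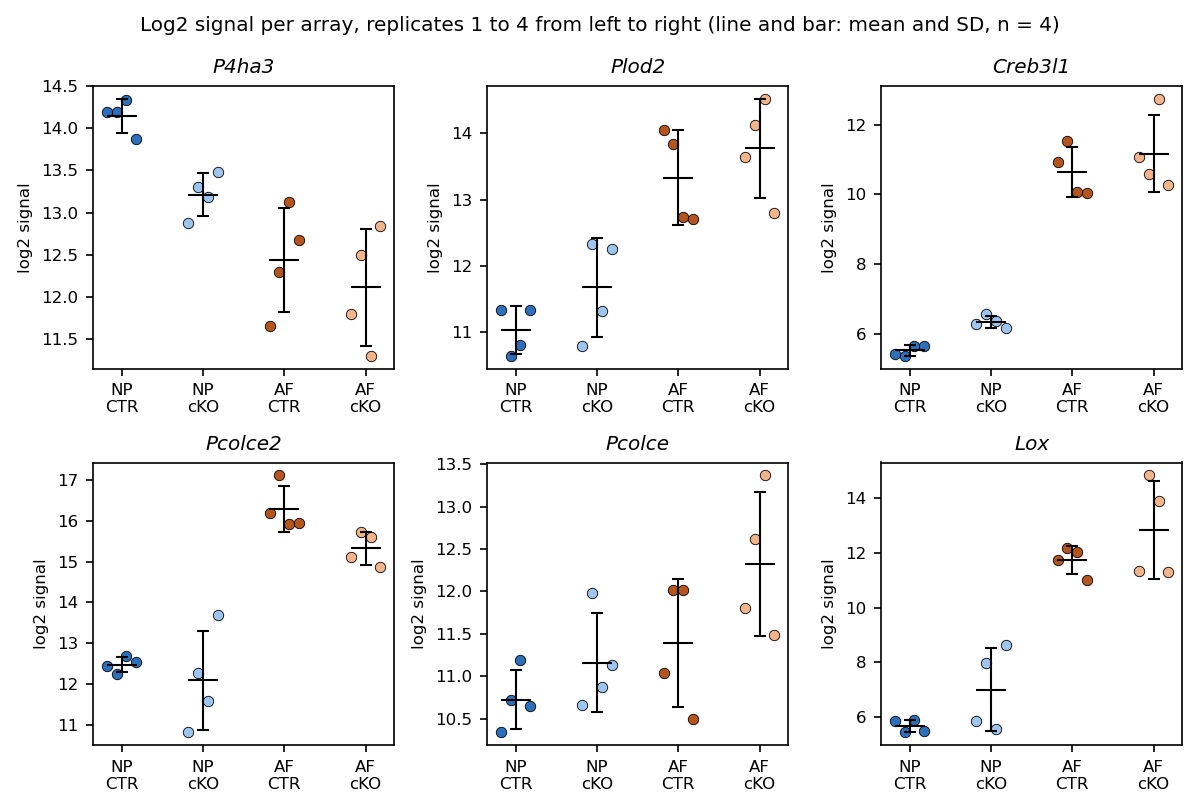
Log2 signal of P4ha3, Plod2, Creb3l1, Pcolce2, Pcolce and Lox on each array in the 4 groups, with the group mean and SD (n = 4); each panel has its own axis, which does not start at 0. NP and AF separate in most panels, while CTR and cKO of a tissue overlap except for P4ha3 and Creb3l1 in NP and Pcolce2 in AF.

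The collagens these genes act on were not called by genotype either, in NP, in AF or averaged. In NP, Col11a1 read 7.71 to 9.11 in CTR and 6.22 to 6.90 in cKO, without overlap (-1.77, SE 0.55, adjusted p = 0.574), and it was called (adjusted p = 0.0342) when only the NP arrays were fitted. Col2a1 (-1.07, SE 0.59, adjusted p = 1) and Col11a2 (-0.32, SE 0.33) did not overlap in NP either, where 2.93% of all probe sets did not overlap. The collagens without overlap in AF were Col9a2 and Col9a3, both lower in cKO, and Col5a1, higher in cKO. Over all probe sets 4.33% did not overlap there. In AF, the 7 cartilage collagens each had a negative change and an unadjusted p under 0.05 in limma, where 10.6% of all probe sets passed. Col9a2 lay under background in all 4 AF cKO arrays, so the size of its change is not read here. The 7 collagens had a median of -1.51, and Col2a1 was lowest at -2.72 (SE 0.59, adjusted p = 0.103). Without AF CTR replicate 3, 4 of them were called lower: Col2a1, Col11a2, Col27a1 and Col9a3. Col9a3 alone was called when AF CTR replicate 1 was left out, and Col2a1 alone when AF cKO replicate 3 was. Col2a1 alone was also called without AF CTR replicate 1 and AF cKO replicate 3 (adjusted p = 0.00983). The same held without AF CTR replicates 1 and 2 and AF cKO replicates 1 and 3 (adjusted p = 0.0153). Averaged over both tissues Col2a1 changed by -1.90 (adjusted p = 0.0626), and it was called without AF CTR replicate 3 or 4 or AF cKO replicate 3. Leaving out AF CTR replicate 1 with AF cKO replicate 3 gave an averaged call of Col2a1 too (adjusted p = 0.00301). So did leaving out AF CTR replicates 1 and 2 with AF cKO replicates 1 and 3 (adjusted p = 0.00494). Col11a1 was called beside it in both of these settings. With all arrays kept, Col2a1 was also called after a second quantile normalization (adjusted p = 0.0386). The same held with only probe sets above the highest negative control median (adjusted p = 0.0473). Without AF cKO replicate 4 the averaged call was Col5a1, at 1.16 (adjusted p = 0.0422). Col11a1 joined Col2a1 without AF cKO replicate 3, and Col27a1 joined it without AF CTR replicate 3. The 6 collagens of fibrous tissue had a median of 0.59 in AF, 5 of them positive and none called. Among them Col3a1 rose by 2.42 (SE 0.70, adjusted p = 0.233) and Col5a1 by 1.30 (SE 0.37, adjusted p = 0.222). Both had an unadjusted p under 0.05 in limma, while Col1a1 and Col1a2 changed by 0.08 and -0.08. Of the 71 other pathway genes, 0 were called in limma in NP (6 at an unadjusted p under 0.05, against 4.58% of all probe sets) and 0 in AF (6, against 10.6%), and nothing is read from these counts. Averaged over both tissues 1 of the 71 was called (0.311% of all probe sets), the transcription factor Creb3l2, which fell in cKO. It read 15.79, 15.61, 15.76 and 15.41 in NP CTR and 14.09, 14.64, 14.98 and 14.81 in NP cKO. In AF it read 13.89, 14.25, 14.67 and 14.17 in CTR and 13.15, 13.66, 13.06 and 14.17 in cKO. The NP groups did not overlap and the AF groups did, and the averaged change was -0.87 (SE 0.18, adjusted p = 0.0403). That call was lost in 15 of 28 alternatives, among them median centring and leaving out any single array except NP cKO replicate 3, AF CTR replicate 1 or AF cKO replicate 4. Over the alternatives the change stayed between -1.07 and -0.76.

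Spread among arrays of 1 group was larger in AF than in NP CTR. The median SD over the 30 genes was 0.26 in NP CTR, 0.41 in NP cKO, 0.53 in AF CTR and 0.57 in AF cKO, with Lox at 1.51 in NP cKO and 1.79 in AF cKO. In AF, osteoblast and osteocyte markers moved over a wide range. The mean log2 signal of 10 such genes was 10.64, 10.25, 8.43 and 9.28 in AF CTR and 10.23, 9.67, 11.88 and 8.63 in AF cKO. In NP that mean was 5.48 to 5.82, at background, although Ibsp (6.62 to 8.39) lay above the negative controls in every NP array. AF cKO replicate 3, the highest of the 8 AF arrays for these 10 markers, was also the highest for Plod2, P3h3, Serpinh1, Creb3l1, Bmp1, Pcolce and Loxl1. The array was highest, too, for the means of fibrous (14.43), osteoclast (10.31), erythroid (10.21), neutrophil (13.82), endothelial (8.19) and macrophage (8.12) markers. It was not highest for cartilage, muscle or NP markers. P4ha3 ran the other way, lowest in AF cKO replicate 3 at 11.30. Its highest AF value was 13.12 in AF CTR replicate 3, the AF array with the lowest osteoblast markers. AF cKO replicate 4 was the lowest AF array for 14 of the 30 genes. AF CTR replicate 2 was the highest AF array for 9 of the 30, more than the 7 of AF cKO replicate 3.

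**Figure D5:**
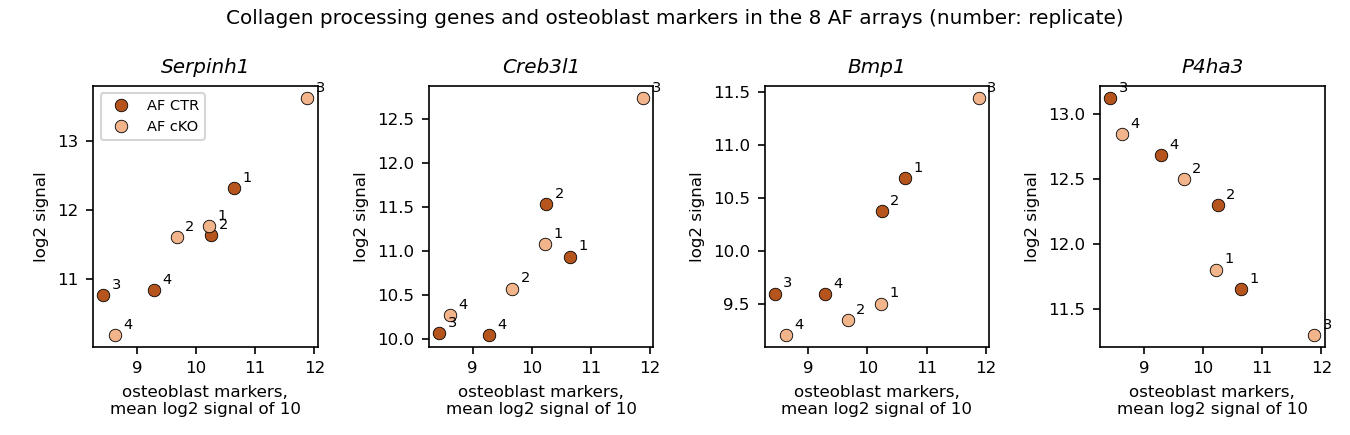
Log2 signal of Serpinh1, Creb3l1, Bmp1 and P4ha3 (vertical axes) against the mean log2 signal of 10 osteoblast and osteocyte markers (horizontal axes) in the 8 AF arrays, numbered by replicate. Serpinh1, Creb3l1 and Bmp1 are highest and P4ha3 is lowest in AF cKO replicate 3, which has the highest marker mean of 11.88. That array is also the highest AF array for other marker lists, which are not drawn. These genes were chosen after their values were seen.

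Other markers differed between AF arrays as well. Skeletal muscle genes had a mean of 9.85 and 9.26 in AF cKO replicates 2 and 4 and at most 7.19 in the other AF arrays, and neutrophil genes lay between 10.05 and 13.82 in the 4 AF cKO arrays and between 6.54 and 12.14 in AF CTR. Their part in the AF results was not tested. Without AF CTR replicates 1 and 2 and AF cKO replicates 1 and 3, 0 of the 30 genes were called by genotype in AF (1 at an unadjusted p under 0.05, in limma). In cKO discs that setting left 15 genes lower in NP and none higher, with P4ha3 at 0.54 (adjusted p = 0.156). The shares of all probe sets in that setting are not given here, so nothing is read from these counts.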

How the data were processed

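Per the labels' protocols, the authors ran sst-RMA (RMA with signal space transformation) in Transcriptome Analysis Console and deposited log2 signals; neither the program's version nor the genome build was given in the sources used here. The protocols describe RNeasy columns, the GeneChip WT Plus kit and thresholds of p under 0.05 and a fold of 1.75. Of 28846 probe sets, 6640 controls were left out and 22206 tested. Gene symbols came from the platform annotation, with 1 symbol for 19572 probe sets.

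limma 3.58.1 in R 4.3.3 fitted 4 group means to the 16 arrays, without a block, with Benjamini-Hochberg adjustment over all 22206 probe sets and a threshold of 0.05. SE and 95% intervals are the fit's. A gene is under background where its signal is below the median of 5222 negative control probe sets of that array. A bound sets the bright group's mean against the dim group's negative control medians. The fit was tested on simulated data.

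Titles tie each NP array to the AF array of its animal. Within such pairs, deviations from group means had r between -0.293 and 0.348, and the consensus correlation was 0.0353, and animal blocks were alternatives. Genes named with a value on every array are the 6 of smallest p per genotype comparison, the 10 largest lower and all higher calls of NP against AF in CTR, and the 4 of smallest p for the difference of changes. Other pathway genes are named from up to 4 calls per list. The genes, lists and comparisons were chosen with earlier results of these data known. Other settings were other scalings, filters, moderation, weights, blocks, label thresholds and left-out arrays; the fixed animal block and leaving out AF arrays with high osteoblast markers were added after seeing the data.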

Additional observations from a re-analysis of the deposited data

Results flagged for a closer look

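In 120 groups of 4 arrays (30 genes in 4 groups), 6 held an array far from the other 3 by Dixon's criterion, the number that chance gives (about 1 in 20). P4ha1 was lowest in AF cKO replicate 4 at 12.77, against 13.03 to 13.06 in the others. Mia3 was lowest in NP cKO replicate 1 at 10.12, against 11.02 to 11.15. Bmp1 was highest in AF cKO replicate 3 at 11.45, against 9.21 to 9.5, in the array with the highest osteoblast markers and the highest AF means of other marker lists. Tll1 was highest in NP cKO replicate 1 at 5.78, under background. Adamts14 was highest in NP CTR replicate 2 at 6.90, against 6.45 to 6.49, and lowest in AF cKO replicate 4 at 6.86, against 7.33 to 7.36.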

How the results depend on the processing

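Counts of genes called between NP and AF lay between 14 and 19 in CTR (16 to 18 with each array left out in turn) and between 15 and 20 in cKO (15 to 20), and no called gene changed direction. With the animal as a random replicate block both counts were 19, with the replicate number as a block 18 and 19, and with the animal as a fixed block 17 and 17. The genotype counts of 0 stayed 0 with each array left out, under the random animal block and under the replicate number block. The fixed animal block gives no count of cKO against CTR within a tissue or averaged, since each animal has 1 genotype. Same-numbered CTR and cKO arrays come from different animals, and their deviations correlated with r from -0.275 to 0.208. At the labels' thresholds the count of the 30 genes was 1 in NP, 2 in AF, 1 for the difference of changes and 1 for the average. The AF median change rose from 0.01 to 0.33 without AF CTR replicates 1 and 2; the cause was not tested. Median centring brought the CTR median difference of NP and AF from -1.0 to -0.87 and the count of calls to 16. Other probe sets of a gene could not be compared, since each gene had 1. Signal over background limits Adamts3 and Tll1 in every array, Loxl1 in NP, Lox, Creb3l1 and P3h3 in all 4 NP CTR and 2 to 3 NP cKO arrays, Adamts14 in 2 NP CTR arrays and Bmp1 in 1.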
